A study of Mus musculus with 22 samples.

Results

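The 3 colony-stimulating factor genes Csf1, Csf2 and Csf3 and the 5 genes of their receptors, Csf1r, Csf2ra, Csf2rb, Csf2rb2 and Csf3r, were followed in bone marrow-derived macrophages (BMDM). The 8 genes were taken by name as the mouse ligand and receptor genes with a Csf symbol, out of 22383 genes tested. The array carried 14 probes for them in 32 spots, and all 14 probes passed the filter of a signal well above background on at least 3 arrays. BMDM are macrophages grown in culture from marrow cells with M-CSF, the protein made from Csf1. Here they were cultured for 9 days, with M-CSF at 10 ng/ml, and then kept in medium or given lipopolysaccharide at 100 ng/ml (LPS, a bacterial cell wall product that activates macrophages through TLR4) for 360 min. Per the methods, the culture medium was replaced by one without M-CSF 1 h before the experiments. Per the labels, the marrow came from male C57BL/6 mice aged 10 to 14 weeks. The mice were wild type (wt), lacked the kinase MK2 in all cells (MK2-/-), or lacked both MK2 and its close relative MK3 (MK2/3-/-). There were 4 wt medium, 3 wt LPS, 4 MK2-/- medium, 4 MK2-/- LPS, 3 MK2/3-/- medium and 4 MK2/3-/- LPS arrays, 22 in all. All arrays of a genotype lay on 1 slide, so that a difference between genotypes and a difference between slides cannot be told apart, whereas LPS and medium were on the same slide within each genotype.

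Colony-stimulating factors are secreted proteins that drive the survival, growth and activation of myeloid cells. M-CSF binds the receptor tyrosine kinase encoded by Csf1r, which macrophages depend on. GM-CSF (Csf2) binds an alpha chain (Csf2ra) that signals through the common beta chain (Csf2rb), JAK2 and STAT5, and G-CSF (Csf3) binds a homodimeric receptor (Csf3r) best known from neutrophils that signals mainly through STAT3. Mice carry a further beta chain gene, Csf2rb2, whose product serves the IL-3 receptor and is nearly identical in sequence to Csf2rb. MK2 and MK3 act downstream of the kinase p38 and are known for regulating the stability and translation of cytokine mRNAs with AU-rich elements, a class to which the Csf2 mRNA belongs.

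All levels below are log2 of the array signal after quantile normalisation, which makes the distribution of signals the same on every array, and differences are differences of group means on this scale. Levels of different probes cannot be set against each other. A call means an adjusted p below 0.05 from limma's moderated test over all genes (Benjamini-Hochberg), and the LPS and genotype comparisons of all 6 groups came from the same fit. A fold is a lower bound, written "at least", where every array of one group had the probe at background. Such bounds hold for the main processing only.

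The arrays were checked before the members were read. The median signal ran from 32.7 to 108 and 61.1% to 82.8% of probes were well above background, with no saturated spots. The Mapkapk2 signal was 10.77 to 15.33 in wt and 8.34 to 11.95 in both knockouts, below wt within each treatment, and Mapkapk3 was 7.65 to 11.40 in MK2/3-/- against 11.92 to 13.42 in the other genotypes. Whether these probes lie in the deleted parts was not given in the sources used here. The 7 macrophage markers tested were above background on all arrays, with a summed level of 18.75 to 19.53. MK2-/- LPS replicate 3 and MK2-/- medium replicate 3, labelled male like the others, had a Ddx3y signal (a Y-linked gene) of 1.99 and 2.01 against 10.09 to 11.26 on the other 20 arrays, and an Xist signal of 7.66 and 7.78 against 1.99 to 5.79. MK2-/- LPS replicate 3 also had 2927 spots marked as outliers by the scanner software, against at most 261 on any other array. The library labelled wt medium replicate 4 had a summed level of 15.33 for Tnf, Il6, Il1b, Nos2 and Ptgs2, which macrophages induce with LPS, against 10.56 to 12.34 on the other 10 medium arrays. Calls of the 8 members that change without these arrays are given both ways. Pathway and marker genes were not read without them.

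Promoter windows were read from RefSeq (GRCm38.p6, from 250 bases before to 50 after the outermost annotated transcript start) for 5 of the 8 genes, namely Csf1, Csf2, Csf2ra, Csf2rb2 and Csf3r. Those of Csf1, Csf2 and Csf2rb2 are printed because these genes changed most among the ligands and receptors with a window. They lie at chr3:107760420-107760719, chr11:54249850-54250149 and chr15:78305672-78305971, all on the minus strand, and are written 5′ to 3′ along the gene with motif matches in capitals.
Csf1: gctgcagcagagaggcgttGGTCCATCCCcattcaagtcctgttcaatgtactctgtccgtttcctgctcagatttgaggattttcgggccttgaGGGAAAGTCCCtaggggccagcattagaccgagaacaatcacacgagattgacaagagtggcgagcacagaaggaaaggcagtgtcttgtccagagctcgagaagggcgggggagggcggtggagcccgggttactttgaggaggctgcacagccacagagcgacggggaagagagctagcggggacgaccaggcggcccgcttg
Csf2: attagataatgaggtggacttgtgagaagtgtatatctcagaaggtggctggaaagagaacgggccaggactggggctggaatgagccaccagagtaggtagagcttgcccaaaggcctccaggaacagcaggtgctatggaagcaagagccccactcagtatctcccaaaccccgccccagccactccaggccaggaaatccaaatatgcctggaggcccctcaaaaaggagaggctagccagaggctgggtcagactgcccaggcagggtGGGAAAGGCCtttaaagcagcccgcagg
Csf2rb2: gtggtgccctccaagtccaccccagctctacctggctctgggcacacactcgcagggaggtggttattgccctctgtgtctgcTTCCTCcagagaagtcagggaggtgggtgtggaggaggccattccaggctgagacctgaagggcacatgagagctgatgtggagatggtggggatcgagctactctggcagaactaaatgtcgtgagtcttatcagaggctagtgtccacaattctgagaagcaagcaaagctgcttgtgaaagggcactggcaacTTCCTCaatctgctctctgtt
The capitals mark matches on either strand to the NF-kB pattern (GGGA, any 4 bases, CC) in Csf1 and Csf2 and to the PU.1 pattern GAGGAA in Csf2rb2. The Csf1 window held 3 NF-kB matches, of which 2 overlap on opposite strands and share the longer run of capitals. The Csf2 window held 1, beginning 22 bases after the start, and since the window is set by the outermost of several annotated starts it need not be the promoter of the transcript that the probe reads. The Csf2rb2 window held 2 PU.1 matches, Csf2ra 2, and Csf3r 1 PU.1 and 1 NF-kB match. Of 32851 promoters of the same length, 20.7% held the NF-kB pattern and 28.3% the PU.1 pattern. The patterns of AP-1 (TGANTCA, in 7.81% of promoters), CK-1 (GAGATTC, 3.09%) and the TATA box (TATAAA, 13.6%) had no match in the 5 windows. These are letter matches only.

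LPS raised all 3 ligand genes and lowered 3 of the 5 receptor genes in each genotype. In wt BMDM 6 of 8 members were called, 3 higher and 3 lower, against 42.1% of all genes tested (18.6% higher and 23.5% lower). In MK2-/- BMDM it was 6 of 8, again 3 higher and 3 lower, against 44.6% (17.5% higher and 27.1% lower). In MK2/3-/- BMDM it was 6 of 8, 3 higher and 3 lower, against 48.2% (20.2% higher and 27.9% lower). With each array scaled to its 75th percentile in place of quantiles, 4, 3 and 4 members were called in the 3 genotypes: the 3 ligands higher in each, Csf2rb2 lower in wt and Csf2ra higher in MK2/3-/-. With quantile normalisation the receptor genes called lower were Csf1r, Csf2ra and Csf2rb2 in wt and Csf1r, Csf2rb2 and Csf3r in both knockouts. The median LPS difference of the 8 members was -0.62, -0.42 and -0.56 in wt, MK2-/- and MK2/3-/-, beside -0.04, -0.01 and 0.01 over all genes.

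Csf2 encodes GM-CSF, a cytokine that activates macrophages, granulocytes and dendritic cells. In medium its signal was 2.60, 2.24, 2.04 and 2.31 on the wt arrays, 2.03, 2.06, 2.17 and 2.03 on the MK2-/- arrays and 1.99, 2.00 and 2.07 on the MK2/3-/- arrays. None of these 11 values was well above background. After LPS it was 6.89, 8.51 and 11.06 in wt, 11.22, 10.19, 11.15 and 9.28 in MK2-/-, and 7.98, 7.46, 8.92 and 8.58 in MK2/3-/-. Every LPS array was above every medium array, and the wt LPS arrays spread most widely. LPS raised Csf2 at least 33.0-fold in wt, at least 124-fold in MK2-/- and at least 34.7-fold in MK2/3-/- (adjusted p = 1.69e-07, 1.22e-09 and 1.65e-07). The wt bound rested on single arrays and was at least 64.3-fold without wt LPS replicate 1 and at least 15.2-fold without wt LPS replicate 3. The SD between the 3 wt LPS arrays was 2.10.

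Csf3 encodes G-CSF, the main growth factor of neutrophils. In medium its signal was 2.75, 2.01, 2.04 and 5.25 in wt, 2.03, 2.09, 2.01 and 2.03 in MK2-/-, and 1.99 on all 3 MK2/3-/- arrays. The only medium array well above background was wt medium replicate 4, the one with raised LPS-response markers, whose part in this value was not tested. After LPS it was 10.53, 10.33 and 9.19 in wt, 9.82, 9.88, 10.55 and 7.73 in MK2-/-, and 5.77, 8.04, 8.22 and 6.25 in MK2/3-/-. All LPS arrays lay above all medium arrays, and MK2/3-/- had the lowest LPS levels. The rise was 128-fold (SE 0.74 on the log2 scale) in wt, at least 63.8-fold in MK2-/- and at least 15.4-fold in MK2/3-/- (adjusted p = 4.20e-07, 3.50e-08 and 1.18e-05). Without wt medium replicate 4 no wt medium array was above background, and the wt rise was then at least 70.3-fold, or at least 56.3-fold without replicates 1 and 4. In MK2-/- it was at least 95.9-fold without MK2-/- LPS replicate 4.

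Csf1 encodes M-CSF, the factor that these cells had been grown with. On its brightest probe the medium levels were 13.44, 8.69, 9.79 and 10.58 in wt, 7.64, 7.14, 8.70 and 9.81 in MK2-/-, and 5.84, 7.69 and 10.44 in MK2/3-/-. The LPS levels were 14.00, 13.38 and 14.27 in wt, 13.19, 12.65, 13.58 and 14.11 in MK2-/-, and 13.97, 13.14, 13.88 and 14.02 in MK2/3-/-. The medium arrays spread widely and the LPS arrays lay close together in every genotype. Unlike in the knockouts, in wt the groups overlapped, by replicate 1 in medium. LPS raised Csf1 by 3.26 (SE 0.97, 9.57-fold, adjusted p = 0.0107) in wt, 5.06 (SE 0.89, 33.4-fold, adjusted p = 0.000106) in MK2-/- and 5.76 (SE 0.97, 54.3-fold, adjusted p = 5.80e-05) in MK2/3-/-. The wt rise was 4.20 without wt medium replicate 1, 2.61 without replicate 2 and 4.64 without replicates 1 and 4, and that in MK2/3-/- was 4.69 without MK2/3-/- medium replicate 1 and 6.99 without replicate 3. Each of these was called, so the size and not the call moved with single medium arrays. The call in wt rested on this probe. The other 2 Csf1 probes rose by 2.32 and 2.35 in wt without passing the threshold (adjusted p = 0.0586 and 0.0988), whereas they were called in MK2-/- (4.85 and 5.11) and in MK2/3-/- (4.62 and 4.88).

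**Figure D1:**
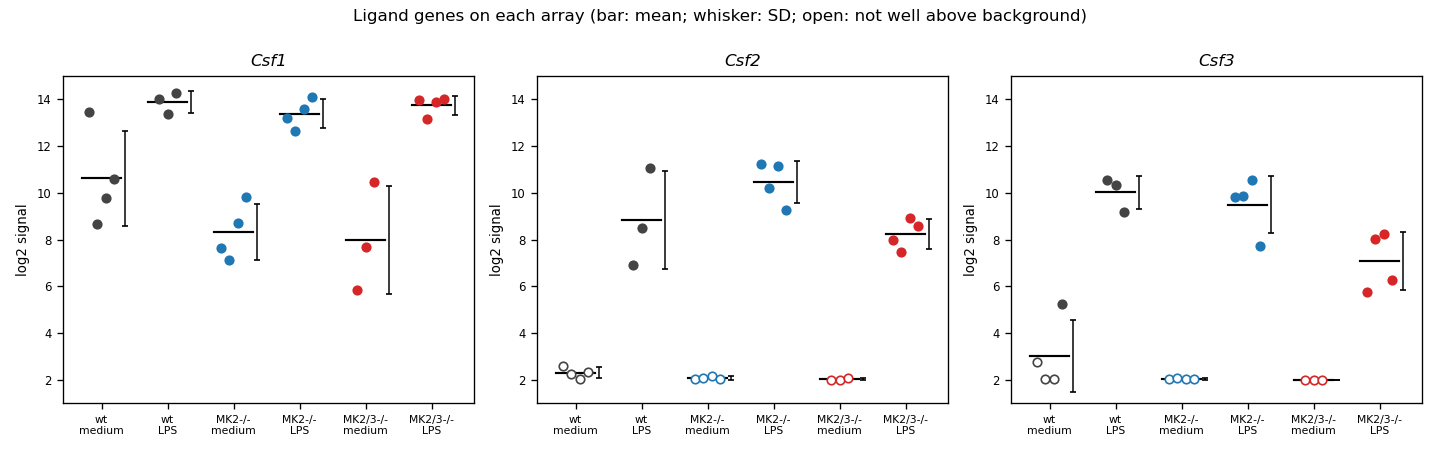
Log2 signal of Csf1, Csf2 and Csf3 on each of the 22 arrays (points) by genotype and treatment, with group means (bars) and SD (whiskers). The medium values of Csf2 lie between 1.99 and 2.60, and those of Csf1 spread from 5.84 to 13.44.

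The spread of Csf1 between medium arrays ran along with the summed level of markers of connective tissue cells. These were Col1a1, Col1a2 and Col3a1 (fibrillar collagens), Dcn (a matrix proteoglycan) and Cxcl12 (a chemokine of marrow stroma), and all 5 were tested. Their summed level in medium was 16.71, 11.68, 13.70 and 14.80 in wt, 11.28, 10.59, 12.71 and 14.72 in MK2-/-, and 9.46, 10.64 and 15.56 in MK2/3-/-. After LPS it was 15.93, 13.53 and 14.38 in wt, 11.35, 10.65, 12.56 and 14.24 in MK2-/-, and 10.37, 10.74, 13.13 and 14.91 in MK2/3-/-. The array with the most Csf1 in medium, wt replicate 1, was also the one with the highest marker level. The 5 markers did not all spread alike. In wt medium Col1a1 ran from 9.59 to 14.99, Col1a2 from 11.06 to 16.08, Col3a1 from 6.59 to 10.48 and Cxcl12 from 7.81 to 11.80, whereas Dcn ran only from 5.12 to 5.58. The mean Dcn level in medium was higher in MK2/3-/- (6.17) than in wt (5.34), unlike that of the other 4.

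Over the 11 medium arrays the Csf1 level and the summed marker level had a Pearson r of 0.957 (permutation p = 1e-05, the smallest that 100000 resamples can give, adjusted 0.00016 over 16 relations). Spearman's rho was 0.982 (permutation p = 2e-05, adjusted 0.00032). Without wt medium replicate 1 and MK2/3-/- medium replicate 1, the arrays farthest from the median marker level, r was 0.965, and with each genotype centred on its own mean it was 0.961. Over the 11 LPS arrays r was 0.674 (permutation p = 0.024, adjusted 0.13) and rho 0.70 (permutation p = 0.019, adjusted 0.15). There r was 0.902 without the 2 arrays farthest from the median and 0.680 within genotypes. The 16 relations were the 8 members on the medium and on the LPS arrays, and no other passed the threshold. The adjustment does not count the choice of this list among the marker lists, and the permutations did not keep genotypes apart. In bulk RNA, more cells of a type and more RNA per cell cannot be told apart.

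With the marker level as a covariate, an alternative chosen after the values were seen, the LPS differences of Csf1 were 3.04 (SE 0.53, adjusted p = 0.000135) in wt, 5.13 in MK2-/- and 5.54 in MK2/3-/-. The difference from wt after LPS then turned from -0.50 to 0.85 in MK2-/- and from -0.13 to 1.17 in MK2/3-/-, without a call (adjusted p = 0.393 and 0.159). In medium it shrank to -1.24 and -1.33 (adjusted p = 0.170 and 0.302). The part of stromal cells in the medium levels was not tested further.

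**Figure D2:**
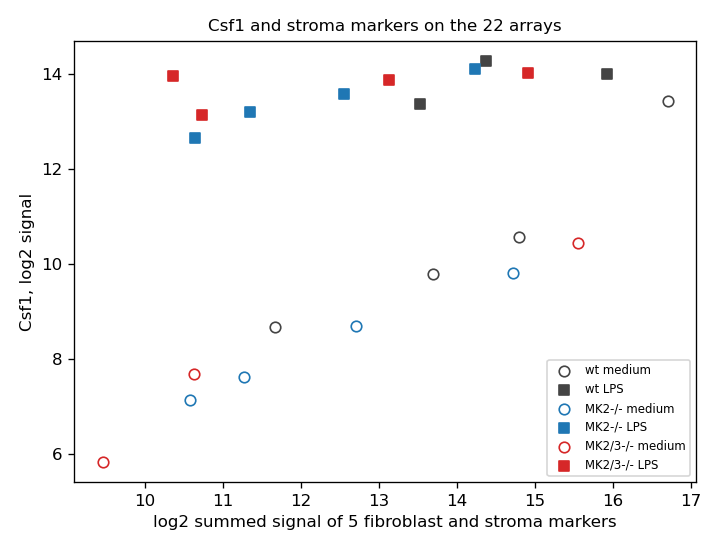
Log2 signal of Csf1 against the log2 summed level of the 5 connective tissue markers, 1 point per array, coloured by genotype and treatment. The 11 medium arrays lie along a line (Pearson r 0.957), and the 11 LPS arrays lie between 12.65 and 14.27 in Csf1. Of the medium arrays only wt replicate 1, at 13.44, reaches into that range.

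The M-CSF receptor gene Csf1r had a similar level in all genotypes and fell with LPS. On its brightest probe the medium levels were 18.47, 18.50, 18.30 and 18.22 in wt, 18.43, 18.40, 18.32 and 18.29 in MK2-/-, and 18.47, 18.33 and 18.31 in MK2/3-/-. The LPS levels were 17.16, 17.32 and 17.48 in wt, 17.43, 17.21, 17.25 and 17.50 in MK2-/-, and 17.19, 17.18, 17.43 and 17.50 in MK2/3-/-. No LPS array reached the lowest medium array. Csf1r fell 2.07-fold in wt (log2 -1.05, SE 0.14, adjusted p = 6.32e-06), 2.01-fold in MK2-/- and 2.06-fold in MK2/3-/- (adjusted p = 2.48e-06 and 4.19e-06). Its other probes fell further, by 1.83, 2.22 and 2.15 on one and by 1.59, 2.01 and 1.72 on the other on the log2 scale, in the same order of genotypes. The size of the fall was smaller with 75th percentile scaling, where the brightest probe differed by -0.17, -0.33 and -0.08 and was not called (adjusted p = 0.557, 0.188 and 0.795). The other probes were called under that scaling too, with differences of -1.06, -1.55 and -1.36 and of -1.11, -1.48 and -1.22. That scaling moved the median of all genes to 0.28, 0.26 and 0.29, and relative to this median the brightest probe differed by -0.45, -0.59 and -0.37. The median of the 5596 genes with the highest signal was lower under that scaling, at 0.20, 0.13 and 0.15.

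Csf2ra, the GM-CSF-binding chain, had medium levels of 16.02, 16.37, 16.18 and 16.02 in wt and LPS levels of 15.62, 15.67 and 15.50. These groups did not overlap, and the fall of 0.55 (SE 0.18, adjusted p = 0.0165) was the smallest one called. In MK2-/- the levels were 15.87, 16.00, 16.15 and 16.30 in medium and 15.48, 16.12, 15.65 and 15.89 after LPS, and in MK2/3-/- they were 16.31, 16.57 and 16.17 against 16.10, 16.13, 15.69 and 16.07. The MK2-/- groups overlapped and the MK2/3-/- groups did not, with differences of -0.29 and -0.35 (adjusted p = 0.162 and 0.109). These are close to the medians of the genes with the highest signal (-0.31 and -0.36). With 75th percentile scaling the sign turned in each genotype, to 0.24, 0.43 and 0.52, and the MK2/3-/- value was then called higher (adjusted p = 0.0418). Relative to the median of all genes under that scaling the differences were -0.04, 0.16 and 0.23, so the direction of Csf2ra in both knockouts depends on the scaling. In each genotype, wt included, the value lay above the median of the genes with the highest signal under that scaling (0.20, 0.13 and 0.15).

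Csf2rb encodes the beta chain shared by the GM-CSF, IL-3 and IL-5 receptors. Its levels in wt were 15.86, 15.68, 15.31 and 15.35 in medium and 15.54, 14.41 and 13.86 after LPS. After LPS 1 wt array stayed within the range of medium and the others lay below it. In MK2-/- they were 15.94, 16.05, 15.54 and 15.48 in medium and 15.75, 16.01, 14.55 and 14.48 after LPS, and in MK2/3-/- 15.85, 15.82 and 15.23 against 15.30, 15.16, 14.35 and 14.68. LPS arrays reached into the medium range in every genotype. The differences were -0.94 (SE 0.40, adjusted p = 0.0637) in wt, -0.56 in MK2-/- and -0.76 in MK2/3-/- (adjusted p = 0.240 and 0.125), and none was called. The wt value was called without wt LPS replicate 1 (-1.41, adjusted p = 0.00819). The second Csf2rb probe differed by -0.25, -0.28 and 0.06. With 75th percentile scaling the brightest probe differed by -0.16, 0.20 and 0.16, and by -0.44, -0.06 and -0.13 relative to the median of all genes. In MK2-/- and MK2/3-/- it lay above the median of the genes with the highest signal (0.13 and 0.15), so there the direction depends on the reference.

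Csf2rb2, the IL-3-specific beta chain gene, had medium levels of 16.09, 16.36, 15.92 and 15.63 in wt, 16.06, 16.21, 15.92 and 15.94 in MK2-/-, and 16.24, 16.27 and 15.85 in MK2/3-/-. Its LPS levels were 15.04, 13.79 and 14.21 in wt, 15.17, 15.28, 14.28 and 14.66 in MK2-/-, and 15.27, 15.13, 14.62 and 15.00 in MK2/3-/-. The LPS arrays lay below the medium arrays in every genotype. The gene fell 3.15-fold in wt (log2 -1.65, SE 0.28, adjusted p = 8.86e-05), 2.27-fold in MK2-/- and 2.17-fold in MK2/3-/- (adjusted p = 0.000823 and 0.00245), and its second probe fell by 1.49, 0.91 and 0.89. With 75th percentile scaling it was called in wt (-0.90, adjusted p = 0.0101) and not in MK2-/- (-0.42, adjusted p = 0.188) or MK2/3-/- (-0.19, adjusted p = 0.587). Since Csf2rb and Csf2rb2 are near-identical, how far each probe reads the other gene is uncertain.

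Csf3r, the G-CSF receptor gene, had medium levels of 15.10, 16.18, 15.28 and 14.68 in wt, 15.22, 16.05, 14.94 and 15.64 in MK2-/-, and 14.97, 15.83 and 15.58 in MK2/3-/-. After LPS it was at 15.04, 14.44 and 14.35 in wt, 14.25, 14.87, 14.27 and 14.31 in MK2-/-, and 14.54, 14.71, 14.49 and 14.01 in MK2/3-/-. The wt groups overlapped and those of each knockout did not. It fell 2.05-fold in MK2-/- and 2.04-fold in MK2/3-/-, with adjusted p = 0.00882 and 0.0144, and differed by -0.70 in wt (adjusted p = 0.0985). The wt value was called without wt medium replicates 1 and 4 (-1.12, adjusted p = 0.0260), and the MK2/3-/- value was lost without MK2/3-/- medium replicate 2 (-0.84, adjusted p = 0.0798). With 75th percentile scaling the differences were 0.12, -0.24 and -0.11 and none was called, and relative to the median of all genes they were -0.16, -0.50 and -0.40.

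**Figure D3:**
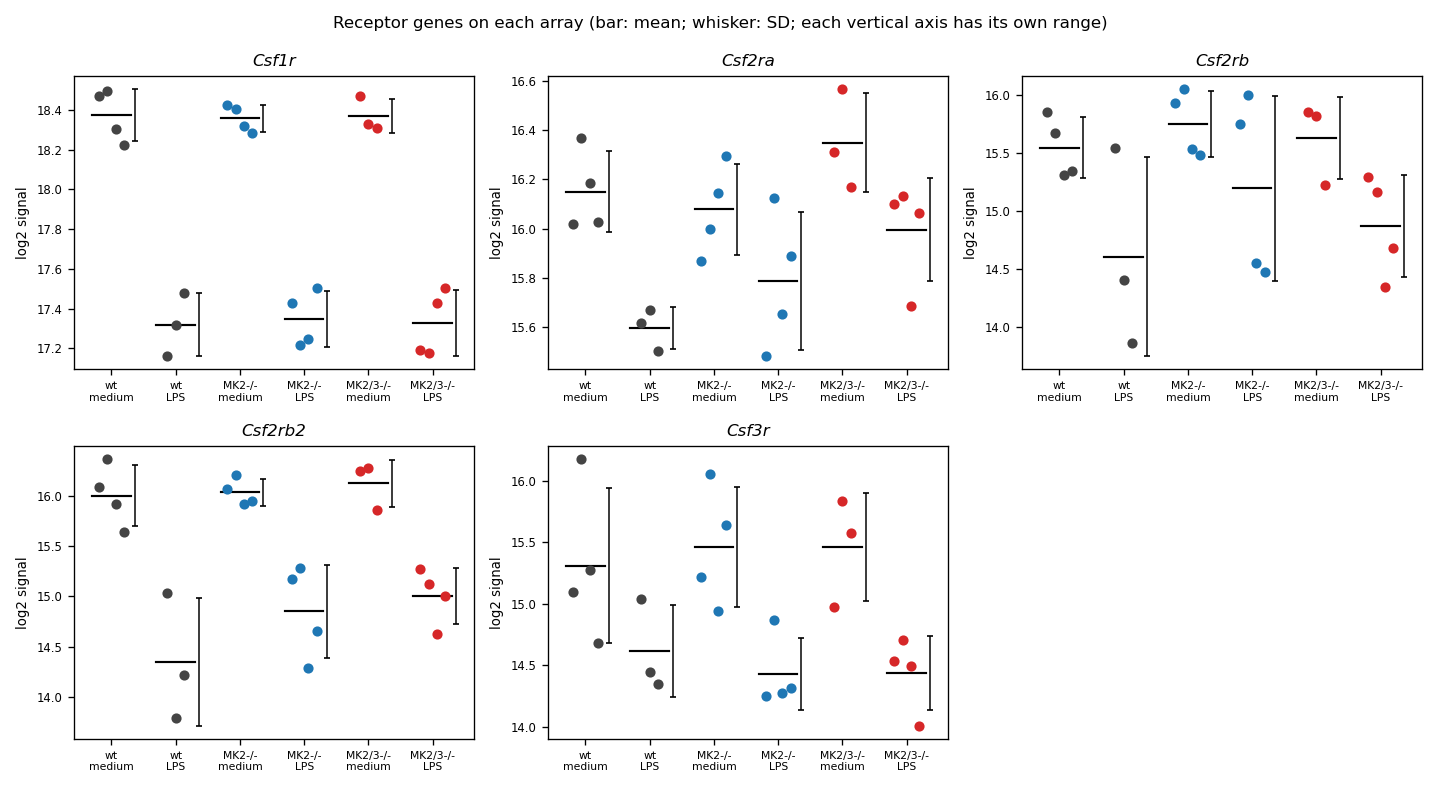
Log2 signal of the 5 receptor genes on each array (points), with group means (bars) and SD (whiskers) on axes with separate ranges. Csf1r and Csf2rb2 lie lower after LPS in every genotype, whereas with 75th percentile scaling the sign of Csf2ra in all genotypes, of Csf2rb in both knockouts and of Csf3r in wt flips. Relative to the median of all genes only that of Csf2ra in both knockouts does. Under that scaling this median lies above that of the genes with the highest signal.

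**Figure D4:**
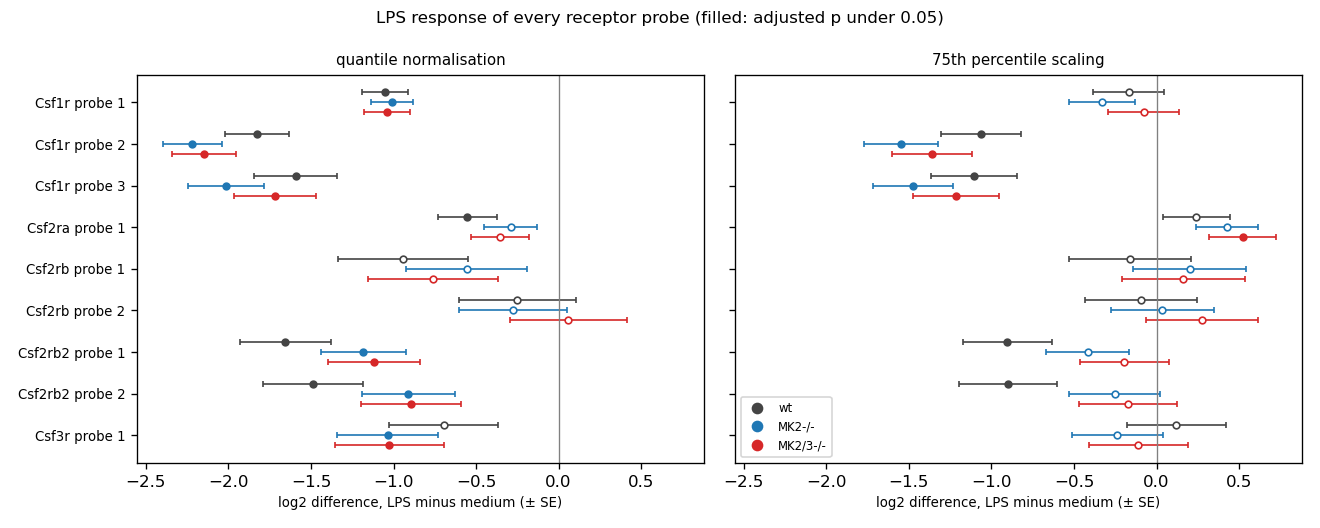
LPS minus medium log2 difference of the receptor genes in each genotype under quantile and under 75th percentile scaling. All differences lie higher under the latter, and those of Csf2ra move from -0.55, -0.29 and -0.35 to 0.24, 0.43 and 0.52, while the median of all genes moves to 0.28, 0.26 and 0.29.

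Whether loss of MK2 or of both kinases altered the members was asked after LPS, in medium and for the response itself. Csf3 was lower in MK2/3-/- than in wt after LPS, and Csf2 and Csf3 were lower in MK2/3-/- than in MK2-/-. No other member was called between genotypes. After LPS 0 of 8 members were called for MK2-/- against wt (11.6% of all genes), 1 of 8, lower, for MK2/3-/- against wt (23.6%, with 14.0% lower) and 2 of 8, both lower, for MK2/3-/- against MK2-/- (13.5%, with 5.80% lower). In medium it was 0 of 8 in each comparison, against 8.82%, 2.02% and 2.82% of all genes in the same order. Apart from the share for MK2/3-/- against MK2-/- after LPS, which is higher, these shares of members are close to the background or below it. The 2 of 8 between both knockouts are too few to set that comparison apart, and the count fell under alternatives given below.

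Csf3 after LPS was 7.71-fold lower in MK2/3-/- than in wt (log2 -2.95, SE 0.74, adjusted p = 0.00802), without overlap of the arrays given above, and the call remained without any single array (adjusted p from 0.00257 to 0.0404). It was 5.37-fold lower in MK2/3-/- than in MK2-/- (log2 -2.43, SE 0.69, adjusted p = 0.0247), where MK2-/- replicate 4 lay within the range of MK2/3-/- and the difference was -3.01 without it. In a limma fit of only the groups compared this difference was not called (adjusted p = 0.104). The shared spread of the main fit includes medium arrays, whose Csf3 SD was 1.53 in wt, 0.03 in MK2-/- and 0.0008 in MK2/3-/-. After LPS the SD was 0.72, 1.22 and 1.24. MK2-/- and wt differed by -0.52 (adjusted p = 0.678, 95% interval -2.07 to 1.03).

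Csf2 after LPS was 4.67-fold lower in MK2/3-/- than in MK2-/- (log2 -2.22, SE 0.59, adjusted p = 0.0184), without overlap. MK2/3-/- against wt was not called (-0.58, adjusted p = 0.545, 95% interval -1.93 to 0.76). That value turned to 0.54 without wt LPS replicate 3, and with array weights it was -1.79 and called (adjusted p = 0.0463). In MK2-/- it was 1.64 above wt (95% interval 0.30 to 2.98), which did not pass after adjustment (adjusted p = 0.0972) and did without wt LPS replicate 3 (2.76, adjusted p = 0.00648). These intervals rest on a spread shared by all 6 groups. The Csf2 SD in medium, at background, was 0.23 in wt, 0.07 in MK2-/- and 0.04 in MK2/3-/-. After LPS it was 2.10, 0.92 and 0.64. The intervals against wt are therefore narrower than the LPS arrays alone would give.

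Both differences between the knockouts depended on single arrays. The Csf2 difference missed the threshold without MK2-/- LPS replicate 1 (-1.97, adjusted p = 0.0667), and that of Csf3 missed it without any one of MK2-/- LPS replicates 1, 2 and 3 or MK2/3-/- LPS replicates 1 and 4. Without both MK2-/- arrays of low Ddx3y signal, neither was called (Csf2 -1.99, adjusted p = 0.0566, and Csf3 -2.08, adjusted p = 0.0788), whereas Csf3 in MK2/3-/- against wt was (-2.95, adjusted p = 0.0100).

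Some markers of other cells differed between the same LPS groups. The summed level of 3 T cell markers (Cd3e, Cd3d and Lck) was 11.73 to 12.14 in wt, 12.27 to 12.84 in MK2-/- and 13.31 to 13.95 in MK2/3-/-. Only Lck was called higher in MK2/3-/- (means 10.81, 11.15 and 13.29), whereas Cd3e was at 11.12, 11.82 and 11.51, and Cd3d, above background on only some arrays of both knockouts, at 4.57, 4.56 and 5.01. The summed level of 6 neutrophil markers was 11.21 to 11.59, 10.97 to 11.60 and 11.80 to 12.38. It was led by Elane (means 11.10, 10.77 and 11.61) and Camp (8.56, 8.58 and 9.85), while Mpo was lowest in MK2/3-/- (5.15, 5.05 and 4.27). By limma 0 of the 6 were called in MK2/3-/- against wt and 1, higher, against MK2-/-. Of 6 dendritic cell markers 1 was higher against wt and 2 against MK2-/-. In both comparisons 1 of 4 B cell and 1 of 3 mast cell markers were higher. Of 4 endothelial markers 1 was lower against wt. These counts stand beside 23.6% and 13.5% of all genes. The part of such cells in the result was not tested.

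In medium the Csf1 level differed by -2.30 in MK2-/- and by -2.63 in MK2/3-/- against wt (adjusted p = 0.112 and 0.162), beside the marker sums given above. Without wt medium replicates 1 and 4 these were -0.92 and -1.25. After LPS the 3 genotypes lay within 0.50 of each other in Csf1 (adjusted p = 0.768, 0.941 and 0.845). For Csf1r after LPS, the 95% interval of the difference from wt was -0.26 to 0.32 in MK2-/- and -0.29 to 0.30 in MK2/3-/-. Csf2rb2 was 0.66 higher in MK2/3-/- than in wt after LPS, and not called (adjusted p = 0.0942).

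The contrast of LPS responses, in which an additive slide effect cancels, was called for 0 of 8 members in each of 3 comparisons, beside 0.00%, 0.679% and 0.0670% of all genes (1685, 2545 and 1926 genes at an unadjusted p below 0.05). For Csf2 the response in MK2-/- exceeded that of wt by 1.87 (95% interval 0.04 to 3.70, adjusted p = 0.656), and that in MK2/3-/- was below that in MK2-/- by a log2 difference of -2.17 (interval -4.00 to -0.34, adjusted p = 0.492). For Csf3 the response in MK2/3-/- differed from wt by -1.92 (interval -4.11 to 0.28) and from MK2-/- by -2.37 (interval -4.49 to -0.26, adjusted p = 0.515). For Csf1 the differences from wt were 1.80 (interval -0.96 to 4.56) and 2.50 (interval -0.36 to 5.37). Without wt medium replicates 1 and 4 those of Csf1 were 0.42 and 1.12, and that of Csf3 in MK2/3-/- against wt was -2.90, with none called. These intervals are wide, and for Csf2 and Csf3 the medium side is a value at background. The interval of Csf2 against wt is narrowed by the small spread of the medium arrays.

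The genes that carry colony-stimulating factor signals were read from a list of 52 in 9 roles, all of them tested. In wt 20 were higher and 9 lower after LPS, in MK2-/- 25 and 10, and in MK2/3-/- 21 and 10, beside 18.6% higher and 23.5% lower, 17.5% and 27.1%, and 20.2% and 27.9% of all genes. The counts by role below stand beside the same shares of all genes. The median LPS difference of the list was 0.43, 0.72 and 0.40. With 75th percentile scaling the counts were 24 and 5, 29 and 7, and 27 and 9.

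The LPS differences below are given for wt, MK2-/- and MK2/3-/- in that order. Il34, the other ligand of the M-CSF receptor, differed by 1.46, 2.54 and 0.82, the last of which was not called (adjusted p = 0.0866). Of 7 kinases, 5, 6 and 5 were higher and 1 lower in each genotype. They included Jak2, the kinase bound to the common beta chain (3.86, 3.93 and 3.74), and the Src family kinase Lyn (2.41, 3.13 and 2.86).

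Of 13 adaptors and lipid-signalling genes, 2 were higher and 4, 5 and 5 lower. Pik3cd, a leukocyte PI3-kinase subunit, rose by 1.42, 1.01 and 0.90, and Plcg2, a phospholipase, differed by -1.34, -1.60 and -1.61. Tyrobp, the DAP12 adaptor that cooperates with CSF1R, differed by -1.08, -1.10 and -1.19, and by -0.22, -0.42 and -0.23 without a call under 75th percentile scaling.

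Of the 4 STAT genes 3, 4 and 4 were higher and none lower, with Stat5a at 3.01, 3.62 and 3.25 and Stat3 at 2.76, 2.35 and 2.93. Of 9 negative regulators 3, 4 and 4 were higher and 1 lower. Socs3, a feedback inhibitor of STAT3-activating receptors such as that of G-CSF, rose by 6.69, 7.45 and 7.06. Socs1 rose by 6.05, 6.91 and 5.55. Cish, a target and inhibitor of STAT5 signalling, rose by 4.81 and 6.34 in wt and MK2-/- and at least 113-fold in MK2/3-/-, where it was not above background in medium.

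Of 7 STAT targets 3, 4 and 3 were higher and 1, 0 and 0 lower. They included the kinase gene Pim1 (4.84, 5.03 and 5.30), the cytokine gene Osm (2.57, 3.16 and 3.49) and the survival gene Bcl2l1 (2.12, 2.67 and 2.06). Of 6 transcription factors that act on the receptor genes, 3, 3 and 2 were higher and 2, 2 and 3 lower. Cebpa, a myeloid factor known to act on the Csf3r and Csf2ra promoters, differed by -5.18, -5.92 and -5.93. Ets2 rose by 3.23, 4.09 and 3.00. The receptor chains Il3ra and Il5ra were not called in any genotype, and Adam17, the protease that sheds M-CSF and its receptor, was higher in both knockouts and not called in wt.

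**Figure D5:**
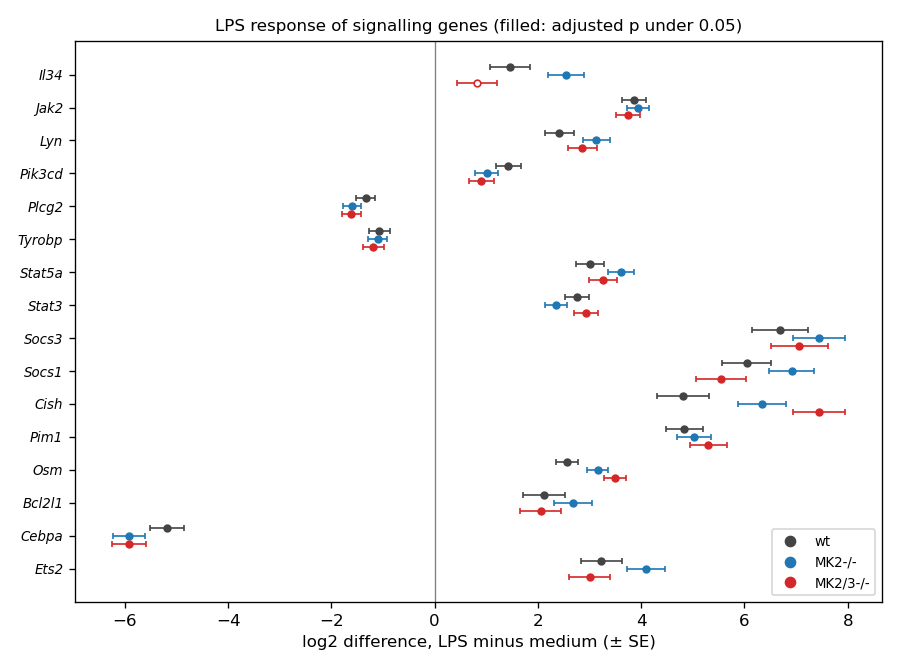
LPS minus medium log2 difference of the named pathway genes in wt, MK2-/- and MK2/3-/- BMDM (points; axis in log2 units). Socs3, Socs1, Cish and Pim1 lie highest and Cebpa lowest, while Tyrobp, near -1 with quantile scaling, is not called with 75th percentile scaling; the point of Cish in MK2/3-/- is a difference from a background value.

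Between genotypes after LPS, 2 of 52 pathway genes were called for MK2-/- against wt (11.6% of all genes), 9 for MK2/3-/- against wt (23.6%) and 6 for MK2/3-/- against MK2-/- (13.5%), which is near or below the share of all genes. Those named here were chosen after their values were seen. In MK2-/- against wt, Osm was higher (0.72, adjusted p = 0.0398) and Il3, which encodes IL-3, lower (-1.37, adjusted p = 0.0430), and with 75th percentile scaling neither was called (0.55 and -0.76, adjusted p = 0.107 and 0.291). In MK2/3-/- against wt 3 were higher and 6 lower, and in MK2/3-/- against MK2-/- 1 was higher and 5 lower. The higher ones against wt were Osm (0.88, adjusted p = 0.00735), the anti-apoptotic gene Mcl1 (0.59, adjusted p = 0.0172) and Adam17 (0.89, adjusted p = 0.0240), of which Mcl1 was not called with 75th percentile scaling (0.36, adjusted p = 0.141). Gab1, an adaptor, was lower against wt (-2.94, adjusted p = 0.000724) and against MK2-/- (-2.42, adjusted p = 0.00233). Cebpb, a factor of inflammatory gene transcription in macrophages, was lower against wt (-1.10, adjusted p = 0.00482) and against MK2-/- (-1.03, adjusted p = 0.00723). The other genes lower against MK2-/- were Il34 (-1.19, adjusted p = 0.0331), the kinase gene Fgr (-1.27, adjusted p = 0.0255) and the adaptor gene Gab2 (-0.98, adjusted p = 0.0185), and the higher one was Il3 (2.35, adjusted p = 0.000603). Of these, Il34, Fgr and Gab2 were not called with 75th percentile scaling (adjusted p = 0.159, 0.0545 and 0.125).

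Cish in medium was below wt in MK2/3-/- (-3.47, adjusted p = 0.00350) and below MK2-/- there (-2.29, adjusted p = 0.0168), as measured differences against a group at background. No pathway gene was called for a difference of the LPS response between genotypes.

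The genes whose pattern was most like that of each member, by Pearson r over the 22 arrays, are given as a description, since most of the variation is that between LPS and medium and r is shared by all genes that change with LPS. For Csf1 the nearest were Pakap (r 0.984) and Inhba (0.968), for Csf2 Col11a2 (0.987) and Jdp2 (0.978), and for Csf3 Il1f6 (0.984) and Saa1 (0.980). For Csf1r they were Rcbtb2 (0.989), Arrb1 (0.986) and Mfsd6 (0.986), for Csf2rb2 Spast (0.975), Rsrp1 (0.947) and Sdf2 (0.945), and for Csf3r Mtif2 (0.987), Slc10a1 (0.953) and Pigr (0.949). Csf2ra and Csf2rb had the lowest values, with Nptn (0.888), Cmtm3 (0.858) and Tlk1 (0.853) and with Zfp322a (0.919) and Hspa8 (0.904). The remaining neighbours were the unnamed transcript AK088732 for Csf1 (0.965), Gm13889 for Csf2 (0.977), AK154426 for Csf3 (0.980) and AK161937 for Csf2rb (0.905).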

How the data were processed

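RNA of 22 BMDM samples in 6 groups was hybridised to 1-colour mouse arrays. Deposited scanner files hold background-corrected processed intensity values made by the authors with Agilent Feature Extraction 11.0.1.1, and the authors' table of log2 values, quantile normalised and set relative to the median of all samples per the methods, was deposited beside them and used as an alternative (r 0.993 to 0.999 against scanner differences between arrays). Control spots (3671 of 62976) and outlier spots were left out, spots of a probe averaged, and log2 intensities quantile normalised as in the study's methods. Of 55681 probes, 28103 with an NCBI accession passed the filter of a signal above background on 3 or more arrays. The brightest probe of each gene gave 22383 genes, 18375 of them with a symbol; of 29150 RefSeq probes 27509 were named through RefSeq. limma 3.58.1 (R 4.3.3) fitted 6 group means, with Benjamini-Hochberg adjustment at 0.05, two-sided. Bounds set the bright group's mean against the lowest signal well above background on each array of the dim group. Groups followed the labels, and replicates are, per the methods, independent experiments. All members were named, together with up to 3 called genes per pathway role and the 3 nearest genes by r. Some of the genes that this rule names are not reported here. The members and lists were chosen with earlier results of these data known. Scripts were tested on simulated data. The number of arrays limits the precision. Replicate numbers did not pair the samples in every case and were tried as a block only as an alternative. Other alternatives were 75th percentile scaling, normexp correction (offset 50, on the spot's median signal), array weights, probe and filter choices, and leaving out arrays.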

Additional observations from a re-analysis of the deposited data

Results flagged for a closer look

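In 4 of 56 groups of 4 arrays tested, 1 array stood apart from the others by a gap above Dixon's 95% critical ratio, which chance exceeds at a rate of about 0.05. Csf1 was lowest in MK2/3-/- LPS replicate 2, at 13.14 against 13.88 to 14.02 on the other 3 arrays. The third Csf1r probe was highest in MK2-/- LPS replicate 4, at 12.48 against 11.83 to 11.92. Csf2ra was lowest in MK2/3-/- LPS replicate 3, at 15.69 against 16.07 to 16.13. Csf3r was highest in MK2-/- LPS replicate 2, at 14.87 against 14.25 to 14.31.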

How the results depend on the processing

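The rise of Csf2 and Csf3 was called in every genotype under every alternative tried, and in size it shrank most with normexp correction (log2 differences for Csf2 of 2.96, 4.43 and 2.49 and for Csf3 of 3.89, 3.62 and 1.76 in wt, MK2-/- and MK2/3-/-). The normexp values of Csf2, and of Csf3 in both knockouts, are smaller than the "at least" bounds given above for the main processing. The rise of Csf1 in wt missed the threshold with the methods' t-test once adjusted by Benjamini-Hochberg (adjusted p = 0.0947). The receptor results depended most on the scaling. With 75th percentile scaling Csf2ra turned to 0.24 in wt and 0.52 in MK2/3-/-, and 3 members in place of 6 were called in MK2-/-. The share of higher among all called genes with LPS then moved from 44.2%, 39.2% and 42.0% to 59.6%, 52.1% and 54.0%, and after LPS between genotypes from 39.0%, 40.7% and 57.1% to 63.0%, 58.7% and 72.6%; the cause was not tested.

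For MK2/3-/- against MK2-/- after LPS, 1 member (Csf2, without Csf3) in place of 2 was called with only the groups compared, 0 with the adjusted t-test and 0 without both MK2-/- arrays of low Ddx3y signal. For MK2/3-/- against wt it was 3 in place of 1 with array weights, 2 with the unadjusted t-test and 0 after adjustment. For MK2-/- against wt it was 2 in place of 0 with array weights (Csf2rb 1.26 and Csf2rb2 0.85), and in medium 1 in place of 0 for MK2/3-/- against MK2-/- with the unadjusted t-test. For LPS against medium in wt it was 8 in place of 6 with array weights in limma. Csf2rb (-1.27, adjusted p = 0.00329) and Csf3r (-0.75, adjusted p = 0.0433) were then called lower too. The cause of these shifts was not tested. Leaving out 1 array at a time gave 5 to 7 members for LPS in wt, 6 in MK2-/-, 5 to 6 in MK2/3-/-, and after LPS 0 to 1, 1 to 2 and 0 to 2. The wt call of Csf2ra was lost without wt LPS replicate 3 or wt medium replicate 2 (highest adjusted p 0.0641).

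With replicate number as a block (consensus correlation 0.116), the only member call that changed was that of Csf2rb with LPS in wt, then called (adjusted p = 0.0407, or 0.0402 with pairing by the letter in the array names). Samples of the same number correlated above 0.1 in 7 of 10 pairs (-0.086 to 0.362), and 8 of these pairs matched in mouse age. Samples of the same letter did so in 7 of 10 pairs (-0.086 to 0.419), all 10 matched in age, and those of unlike letter in 5 of 30. The lowest value in both was that of the MK2-/- arrays of low Ddx3y signal, so a low correlation need not mean unpaired samples. The main fit used no pairing.

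Over all genes, 9423, 9988 and 10779 were called with LPS (7683 to 11670, 8977 to 12060 and 8691 to 11623 across other settings). After LPS it was 2595, 5281 and 3030 (546 to 6416, 62 to 8152 and 719 to 4415), in medium 1974, 452 and 632 (214 to 5637, 56 to 4970 and 354 to 3470), and for differences of the response 0, 152 and 15 (0 to 96, 0 to 1170 and 8 to 138). The t-test was not run for the latter. Signals at background limit what can be said of Csf2 and Csf3 in medium.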
